A study of Rattus norvegicus with 2 samples.

Results

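The surface and filament proteins that are used to recognise marrow stromal cells are described here for 10 genes, namely Thy1, Nt5e, Eng, Cd44, Alcam, Mcam, Ncam1, Cd9, Cd81 and Nes. They were taken as a given list of stromal markers, which was chosen with earlier results of these data known. Each was found on the array by matching the accession of each probe to current rat gene symbols. All 10 were found, on 14 of the 30367 probes, among 15168 named genes. The study compared cultures labelled as marrow stromal cells, a cell type that attaches to plastic and is not a blood cell, between 2 kinds of rat. The control group came from wild-type, normal Sprague-Dawley rats, and the transgenic group from Sprague-Dawley rats that are double transgenic, with the human angiotensinogen gene and the human renin gene (2 human transgenes). Renin cuts angiotensinogen to start the angiotensin cascade, which raises blood pressure. In both groups 150000 cells were seeded per well of a 6-well plate, grown to subconfluency and lysed for total RNA. The age of the rats, the promoters of the transgenes and the number of animals or cultures behind each array are not given in the sources used here.

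Each group had 1 array, a 1-colour rat expression array read with Cy3. With no replicate, no difference below has a test, a p-value or an error between animals, and every value describes these 2 arrays. A gene is called detected where its probe was well above background by the scanner software's flag. A signal is the background-subtracted brightness of a spot in scanner units. The 75th percentile over probes was 905 units in control and 1080 units in transgenic, so the transgenic array was 1.19-fold brighter, and each array was divided by its own percentile before a difference was formed. A difference is transgenic minus control on the resulting log2 scale, and a gene is called higher or lower when it passes 2-fold. The error given with a difference is the scanner software's own error of the spots, carried over to the difference. It covers the measurement and not the biology. This scanner error was 0.20 to 0.21 log2 for the brightest probe of every marker, whatever its number of spots, and is not the spread between spots. The share of probes well above background was 60.2% in control and 60.8% in transgenic, and no spot was saturated. Signals of different probes depend on their sequence, so levels are compared only within a probe.

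No single protein defines a marrow stromal cell. Cultures are recognised by a set of surface proteins that stromal cells carry together and by the absence of blood cell proteins. THY1 (CD90), the 5'-nucleotidase NT5E (CD73) and endoglin (CD105) form the usual core of the positive set. CD44, ALCAM (CD166), MCAM (CD146), NCAM1 (CD56), the tetraspanins CD9 and CD81 and the filament protein nestin are added to describe subsets, and MCAM and nestin are linked to stroma that lies around marrow vessels.

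The label of stromal cells was checked against this scheme. Thy1, Nt5e and Eng were well above background on both arrays. Of the blood cell markers that such cultures should lack, Ptprc (CD45), Cd34 and Itgam (CD11b) were below that limit on both arrays. The monocyte receptor Cd14, another marker of the negative set, was detected on both arrays with 590.3 units in control and 2426 in transgenic. Most other monocyte and macrophage genes went the other way and were bright in control. Lyz2, a lysozyme, read 8372 units in control and 66.30 in transgenic, C1qb 2329 and 466.3, and the receptor adaptors Tyrobp and Fcer1g 2141 and 55.39, and 985.4 and 52.81. The class II gene RT1-Da was detected in control only, with 428.8 units against 17.15, which makes it at least 29.8-fold lower in transgenic. Another class II gene, RT1-Db1, was detected on both arrays, with 791.5 units in control and 292.7 in transgenic. So was the T cell gene Cd3d, with 273.8 and 334.9 units. All 11 stromal and fibroblast markers, such as Col1a1, Vim and Pdgfrb, were detected on both arrays.

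All 14 probes of the 10 markers were well above background on both arrays, and none of their spots was marked as an outlier or saturated. By the 2-fold rule 3 of the 10 markers (Eng, Cd9 and Alcam) were higher in transgenic and 3 (Ncam1, Mcam and Nes) were lower, while Nt5e, Thy1, Cd44 and Cd81 lay within 2-fold. Among all 15504 genes and unmatched transcripts detected on both arrays, 20.8% passed 2-fold in either direction, 10.5% higher and 10.3% lower, against 60.0% of the markers. The median absolute difference was 1.48 log2 over the markers and 0.47 log2 over all genes. Because the list was chosen with earlier results of these data known, these contrasts with all genes are descriptions and not tests. The signed median was 0.43 log2, against -0.07 for all genes, with 6 markers on the positive and 4 on the negative side. The markers spanned 5.39 log2 from Ncam1 to Eng, and lay on both sides of 0.

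**Figure D1:**
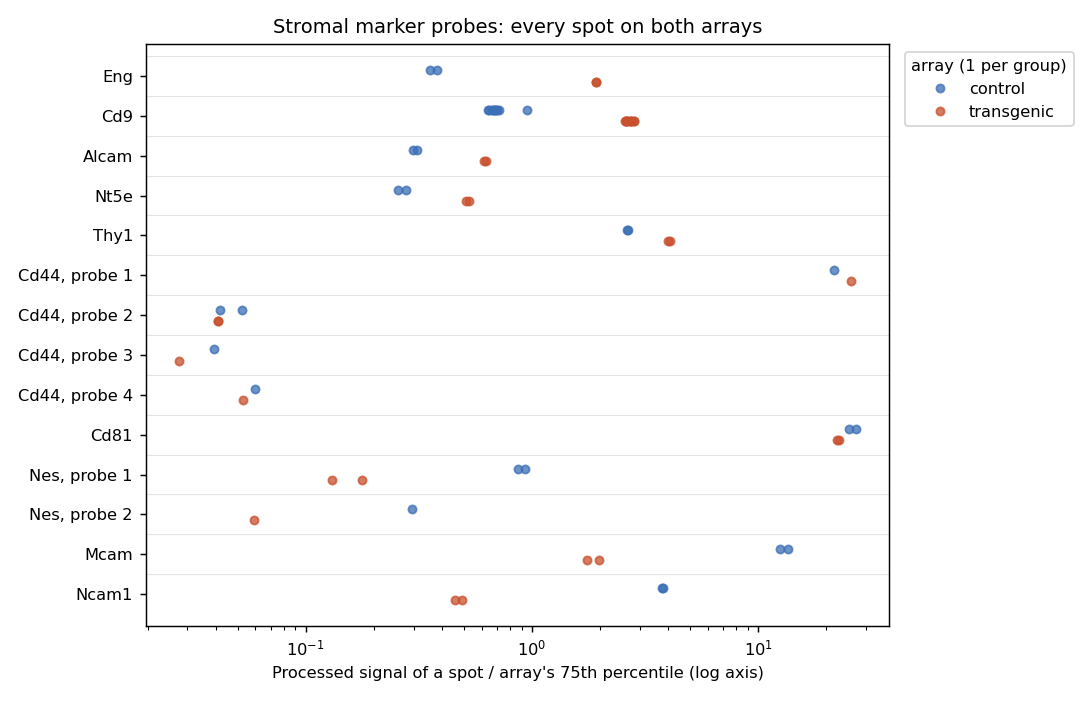
Signal of every spot of the 14 marker probes, divided by the 75th percentile of its array (log axis), with blue points for the control array and orange points for the transgenic array (1 array per group). Spots of the 2 arrays lie farthest apart for Eng, Cd9, Mcam, Ncam1 and both Nes probes, and closest together for Cd81 and all Cd44 probes.

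Endoglin had the largest positive difference of the markers. Its gene, Eng, encodes a membrane co-receptor that presents BMP9, BMP10 and TGF-beta to their signalling receptors. The 2 control spots read 321.5 and 345.4 units, and the 2 transgenic spots read 2077 and 2074. Both transgenic spots stood far above both control spots. After scaling Eng was 5.22-fold higher in transgenic, a difference of 2.38 ± 0.20 log2 (scanner error, 1 array per group), and 98.2% of all genes had a smaller difference.

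The receptor complex around endoglin was mixed. Of 21 other ligands, receptors and signal carriers matched to the array, 16 were detected on both arrays, 2 were higher, 3 were lower and the median was -0.32 log2. Acvr2b, an activin receptor, was 4.28-fold higher (174.2 and 889.4 units in control and transgenic). Mmp14, the membrane protease that can shed endoglin from the cell surface, was 3.39-fold higher. On the other side, the ligand genes Tgfb2 and Tgfb3 were 4.79-fold and 2.96-fold lower and the type I receptor Tgfbr1 was 2.33-fold lower. Acvrl1, the type I receptor that pairs with endoglin in endothelium, differed by -0.51 log2 and Tgfbr2 by 0.07 log2, and the related co-receptor betaglycan, Tgfbr3, was not detected.

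Both CD9 and CD81 are tetraspanins, small proteins that cross the membrane 4 times and gather integrins and immunoglobulin-family partners into patches. The Cd9 probe was printed in 10 spots. These ranged from 580.6 to 864.6 units with a median of 617.0 in control, and from 2772 to 3061 with a median of 2894 in transgenic. Each transgenic spot exceeded the brightest control spot, which itself stood apart from the other control spots. Cd9 was 3.83-fold higher in transgenic (1.94 ± 0.20 log2), with 97.0% of all genes below it.

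Cd81 behaved differently from Cd9. Its control spots read 24390 and 22760 units and its transgenic spots 24500 and 24060. Before scaling the arrays therefore nearly coincided, and after scaling Cd81 differed by -0.21 ± 0.20 log2, a difference about as large as its scanner error. The difference of Cd9 exceeded that of Cd81 by 2.15 ± 0.28 log2, or 4.44-fold. Dividing an array by 1 factor cannot change this gap.

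The other tetraspanins and their partners were also uneven. Of 24 matched, 21 were detected on both arrays, with 4 higher, 3 lower and a median of 0.21 log2. Cd53, a tetraspanin known from leukocytes, was 5.69-fold higher in transgenic (80.23 and 544.2 units). Cd82 was 5.15-fold higher (2130 and 13080 units) and Tspan14, a partner of the protease ADAM10, 3.58-fold higher. Tspan11, seen in transgenic alone, was at least 150-fold higher (2736 units against 11.42). Tspan2 was 2.89-fold lower, and Itgb1, the integrin beta chain that tetraspanins bind, was 2.48-fold lower. Cd63, the tetraspanin of late endosomes, differed by 0.16 log2. Cd37 and Tspan8 were not detected.

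The sequences just upstream of Eng and Cd9, the 2 markers with the largest positive differences, are shown with that of Cd81 as the tetraspanin within 2-fold. They come from RefSeq promoter windows of the assembly GRCr8, which run from 250 bases before to 50 bases after a gene's start and were found for 7 of the 10 markers. Only the part that lies outside the annotated gene is printed, 5' to 3' on the strand of the gene, at chr3:36332029-36332189 (plus strand, 161 bases) for Eng, chr4:159975464-159975608 (minus strand, 145 bases) for Cd9 and chr1:207665047-207665273 (plus strand, 227 bases) for Cd81. Capitals mark every match to any of the 6 motifs searched.
Eng: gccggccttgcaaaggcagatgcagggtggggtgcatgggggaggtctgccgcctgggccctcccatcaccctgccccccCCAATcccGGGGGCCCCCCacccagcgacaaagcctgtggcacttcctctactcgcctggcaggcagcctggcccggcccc
Cd9: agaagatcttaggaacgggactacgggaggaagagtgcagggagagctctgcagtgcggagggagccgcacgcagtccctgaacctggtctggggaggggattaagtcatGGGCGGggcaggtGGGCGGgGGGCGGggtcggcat
Cd81: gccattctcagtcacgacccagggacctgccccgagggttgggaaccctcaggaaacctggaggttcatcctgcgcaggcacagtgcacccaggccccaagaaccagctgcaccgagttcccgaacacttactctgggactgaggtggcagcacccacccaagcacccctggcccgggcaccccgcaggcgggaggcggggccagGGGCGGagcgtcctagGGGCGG

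The motifs were searched on both strands of the whole windows. The GC box GGGCGG occurred 3 times in the window of Cd9, 3 times in that of Nt5e and 2 times each in those of Cd81 and Nes, and 33.1% of the 33469 rat windows hold it. No GC box was found for Eng, whose window held 1 CCAAT box (CCAAT, in 37.5% of windows) and 2 matches to the NF-kappaB consensus (in 7.51%), which overlap each other. Alcam had 1 match to that consensus. The TATA box TATAAA (14.2%) was found in the window of Cd81 only. No window of the 7 markers held the AP-1 motif TGANTCA (7.33%) or the hypoxia response core ACGTG (19.3%). A match is only a run of letters in the window and says nothing of a factor. Windows of Thy1, Mcam and Ncam1 were not used here.

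The other core markers, Nt5e and Thy1, are both held in the membrane by a lipid (GPI) anchor. NT5E turns extracellular AMP into adenosine. Its spots read 231.0 and 251.2 units in control and 554.4 and 568.2 in transgenic, which puts both transgenic spots above both control spots. Nt5e was 1.95-fold higher (0.97 ± 0.21 log2), just short of the 2-fold rule, with 89.0% of all genes below it. Its error reached from 0.76 to 1.17 log2 and so included the 2-fold line.

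Genes that make, break down or sense extracellular adenosine differed widely and in both directions. Adora2b, the low-affinity adenosine receptor, was 35.3-fold higher in transgenic (160.7 and 6770 units). Enpp1, which makes AMP and pyrophosphate from ATP outside the cell, was 29.6-fold lower (21220 and 854.7 units). The alkaline phosphatase Alpl, which also releases adenosine from AMP and is itself a stromal and bone marker, was 6.48-fold lower. The nucleoside transporter Slc29a2 was 2.49-fold lower and the adenosine kinase Adk 2.14-fold lower. Adora2a and the autotaxin gene Enpp2 were detected in transgenic only, at least 8.30-fold and at least 2.86-fold higher. Over the 11 genes detected on both arrays of 17 matched, 1 was higher, 4 were lower and the median was -0.04 log2. Entpd1 (CD39), which supplies AMP to NT5E in many tissues, was not detected.

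Thy1 is a small immunoglobulin-like protein of fibroblasts, neurons and rat thymocytes. Its spots read 2417 and 2376 units in control and 4399 and 4306 in transgenic. The spots of each array nearly coincided, with standard deviations of 0.017 and 0.022 log2. Thy1 was 1.52-fold higher (0.61 ± 0.20 log2), within the 2-fold rule. The T cell gene Cd3d differed by 0.04 log2 and Cd3e was not detected.

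Nt5e exceeded Thy1 by 0.36 log2, with an error of 0.29. The core markers therefore lay in the order Eng, Nt5e, Thy1, all positive, and only the step from Eng to the others was well above the scanner error.

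CD44 is the main receptor for hyaluronan, the long sugar chain of loose matrix, and is spliced into many forms. Its 4 probes differed in sign. The brightest probe read 19605 units in control and 27720 in transgenic, 1.19-fold higher after scaling (0.25 ± 0.20 log2). The other probes read 54.12 and 56.93 units (-0.18 log2), 42.28 and 44.19 units (-0.19 log2) and 35.65 and 29.85 units (-0.51 log2). These dim probes lay only 1.87 to 3.57 times above the lowest signal that counted as well above background. No probe of Cd44 passed 2-fold, and the sign of its difference rested on which probe was read.

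Genes that make hyaluronan, bind it or link CD44 to the cell skeleton were mixed. Of 11 detected on both arrays, 3 were higher, 1 was lower and the median was -0.01 log2. Has2, which makes long hyaluronan chains, was 3.49-fold higher in transgenic (72.16 and 300.7 units). The hyaluronidase Cemip2 was 4.34-fold higher and Ezr, which ties CD44 to actin, 2.75-fold higher, while its relatives Rdx and Msn differed by -0.89 and -0.44 log2. Spp1, osteopontin, a soluble ligand of CD44, was 18.4-fold lower (48840 and 3169 units).

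Alcam, Mcam and Ncam1 encode cell adhesion proteins of the immunoglobulin family, and they went in opposite directions. ALCAM binds itself and the lymphocyte receptor CD6. Its spots read 281.8 and 270.6 units in control and 679.6 and 662.2 in transgenic. Alcam was 2.04-fold higher (1.03 ± 0.21 log2), just past the 2-fold rule, with an error from 0.82 to 1.23 log2. Alcam and Nt5e thus lay on either side of the line by less than their errors, and their calls carry no distinction between them.

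MCAM marks endothelium, pericytes and stroma that can form bone. Its spots read 12310 and 11360 units in control and 2130 and 1883 in transgenic, and no transgenic spot came near a control spot. Mcam was 7.04-fold lower in transgenic (-2.82 ± 0.20 log2), and 0.98% of all genes lay below it.

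NCAM1 joins neural and muscle cells and marks some marrow stromal subsets. Its spots read 3407 and 3453 units in control and 528.7 and 491.2 in transgenic. Ncam1 was 8.03-fold lower (-3.0 ± 0.20 log2), the lowest of the markers, with 0.819% of all genes below it. Mcam and Ncam1 differed from each other by 0.19 log2 with an error of 0.28, so their order is not settled. Alcam exceeded Mcam by 3.84 ± 0.29 log2 and Ncam1 by 4.03 ± 0.29 log2, gaps of 14.3-fold and 16.3-fold that dividing an array by 1 factor cannot change.

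Most other adhesion proteins of this family were within 2-fold or not detected on both arrays. Of 24 matched, 9 were detected on both arrays, with 1 higher, 0 lower and a median of -0.15 log2. Nectin2, a junction protein, was 3.58-fold higher. Bsg (CD147), Cadm4 and L1cam differed by 0.83, -0.92 and -0.35 log2. Cadm1 and the leukocyte adhesion molecule Vcam1 were detected in transgenic only, at least 15.7-fold and at least 5.14-fold higher, and Nectin3 was detected in control only, at least 2.75-fold lower in transgenic. Ncam2, the closest relative of Ncam1, was not detected.

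Nestin is an intermediate filament protein of neural progenitors, newly formed muscle and perivascular marrow stroma. Nes was read by 2 probes. The first gave 782.4 and 845.5 units in control and 140.6 and 191.6 in transgenic, 5.91-fold lower (-2.56 ± 0.21 log2), and 1.30% of all genes lay below it. Its transgenic spots had a standard deviation of 0.316 log2, the widest among the marker probes with several spots. The second probe gave 266.8 and 63.82 units, 4.99-fold lower (-2.32 ± 0.22 log2). Both probes placed Nes past 2-fold on the same side.

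The other intermediate filaments, and the plakin Plec that links them, did not follow Nes to that extent. Of 11 detected on both arrays, 2 were higher, 1 was lower and the median was -0.45 log2. Sync, a filament-linked protein of muscle, was 2.31-fold lower, and Synm, which assembles with other filament proteins, was 2.44-fold higher. The keratin Krt7 was 3.57-fold higher and Krt18, seen in transgenic alone, was at least 3.87-fold higher. Vim and Des, filament proteins with which nestin assembles, differed by -0.52 and -0.45 log2, and Lmna by -0.80 log2. The neurofilament gene Nefh, seen in transgenic alone, was at least 6.79-fold higher, and Nefm, seen in control alone, at least 3.52-fold lower.

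**Figure D2:**
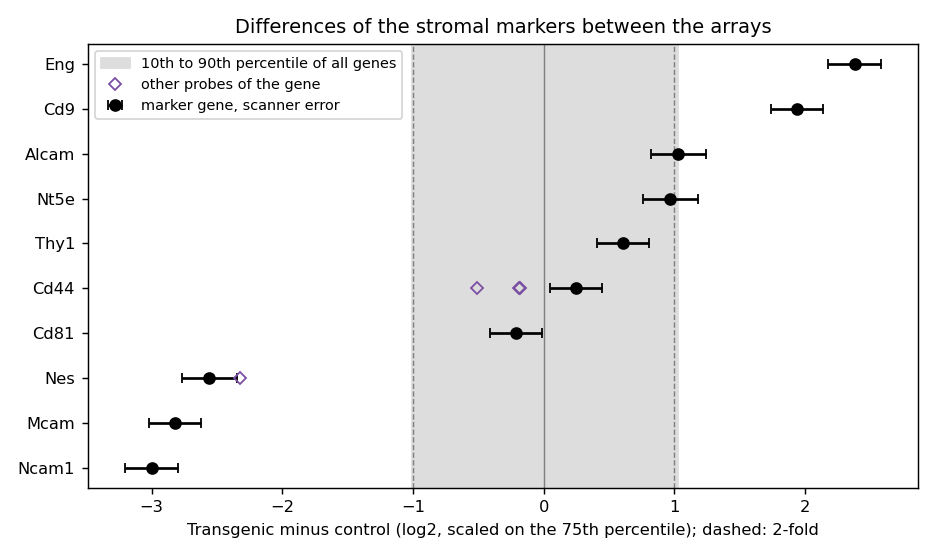
Difference between the arrays (transgenic minus control, log2) for the 10 markers, as black points with the scanner error, with open diamonds for the further probes of Cd44 and Nes, a grey band from the 10th to the 90th percentile of all genes (-1.01 to 1.03) and dashed lines at 2-fold. Eng and Cd9 lie to the right of the band and Nes, Mcam and Ncam1 to its left, while Alcam and Nt5e lie at its right edge.

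Genes of the marrow niche, the stroma that supports blood stem cells, were as uneven as the markers. Of 30 matched genes other than the markers, 25 were detected on both arrays, with 8 higher, 7 lower and a median of 0.14 log2. Angpt1 and Cxcl12, factors that hold blood stem cells in place, were 50.9-fold and 8.55-fold higher. Angpt1 read 25.35 units in control and 1540 in transgenic. Its control signal lay near the lowest detected one (15.3 units), so the size of its fold is uncertain. Cxcl12 was higher by 3.10 log2 on its brightest probe and by 5.79 log2 on another probe. The surface protein Cd200, used to sort stromal progenitors, was 10.6-fold higher (464.0 and 5842 units). The stromal cadherin Cdh11 was 9.63-fold lower (721.3 and 89.36 units). Lepr and Ngfr, surface markers of niche stroma, were not detected.

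**Figure D3:**
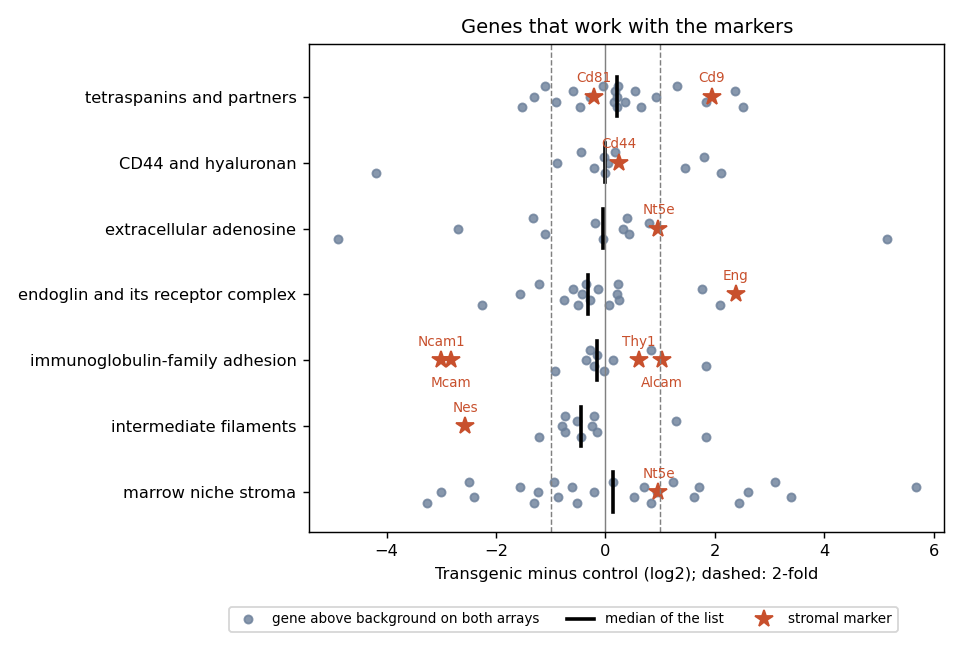
Difference between the arrays (transgenic minus control, log2) of genes that work with the markers, by list, with blue points for genes detected on both arrays, a black bar for the median of each list without the markers, and orange stars for the markers. The medians lie between -0.45 and 0.21 log2. Eng, Cd9, Alcam, Mcam, Ncam1 and Nes lie beyond 1 log2 from the medians of their lists. Nt5e lies about 1 log2 from that of the adenosine list.

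Markers of other cells in a marrow culture were read beside these results. The pericyte and smooth muscle list, which shares its cell types with Mcam and Nes, had 5 of 9 genes lower, 0 higher and a median of -1.05 log2. Its summed signal over all matched genes was 428 times the array's 75th percentile in control and 139 in transgenic. Cspg4 (NG2), the surface proteoglycan of pericytes, was 5.62-fold lower (56720 and 12030 units), Acta2 4.14-fold lower, and Abcc9 was detected in control only, at least 15.6-fold lower in transgenic, while Rgs5 was not detected. Pdgfrb differed by -0.87 log2. Among endothelial markers, which bear on Eng and Mcam, 2 of 4 were lower and 0 higher, with a summed signal of 1.15 in control and 0.364 in transgenic, and Pecam1, Kdr, Tek, Emcn and Tie1 were not detected. Erg was 21.0-fold lower, and the endothelial sums without it were 0.538 and 0.335. Flt1 was 2.13-fold lower, and Cdh5 and Sox18 differed by -0.58 and -0.44 log2, within 2-fold, while Eng was 5.22-fold higher.

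Neural and Schwann cell markers, which bear on Ncam1 and Nes, had 1 of 4 higher, 1 lower, a median of -0.10 log2 and a summed signal of 27.3 in control and 9.66 in transgenic. Uchl1 carried most of it, and without this gene the sums were 2.27 and 3.0, in the opposite order. Uchl1 was 3.76-fold lower and S100b 2.17-fold higher, Tubb3 differed by -0.01 log2, and Ngfr was not detected. Monocyte and macrophage markers, cells that also carry CD9, CD44 and CD81, had 6 of 9 lower and 2 higher, and C1qa, C1qc and Adgre1 were detected in control only. Their summed signal was 20.0 in control and 5.17 in transgenic. Lyz2 made up 9.25 of the control sum, and the sums without it were 10.7 and 5.11. Cd14 and Cd68, 3.45-fold and 3.0-fold higher, differed in the same direction as Cd9 and together made up 1.32 in control and 4.24 in transgenic. Of the leukocyte list, Ptprc, Cd34, Kit, Itgam and Cd3e were not detected, RT1-Db1 was 3.23-fold lower, and the summed signal was 1.69 and 0.623. Of the erythroid list, 2 of 3 genes were higher and 0 lower, with a summed signal of 2.33 and 10.8. The globin chaperone Ahsp (443.7 and 9597 units, 18.1-fold higher) carried this difference in summed signal, since the sums without it were 1.84 and 1.88. Those were mostly the globin gene Hba-a1 (1576 and 1612 units, -0.22 log2). The dimmer globin genes were higher too. Hbb-b1 was 2.60-fold higher (59.86 and 185.4 units), and Hbb, detected in transgenic only, was at least 8.52-fold higher. Of the stromal and fibroblast list, 3 of 11 were lower and 2 higher, with a summed signal of 1430 in control and 960 in transgenic. The part of these cells in the marker differences was not tested. In such bulk RNA, fewer cells of a type and less RNA per cell cannot be told apart.

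**Figure D4:**
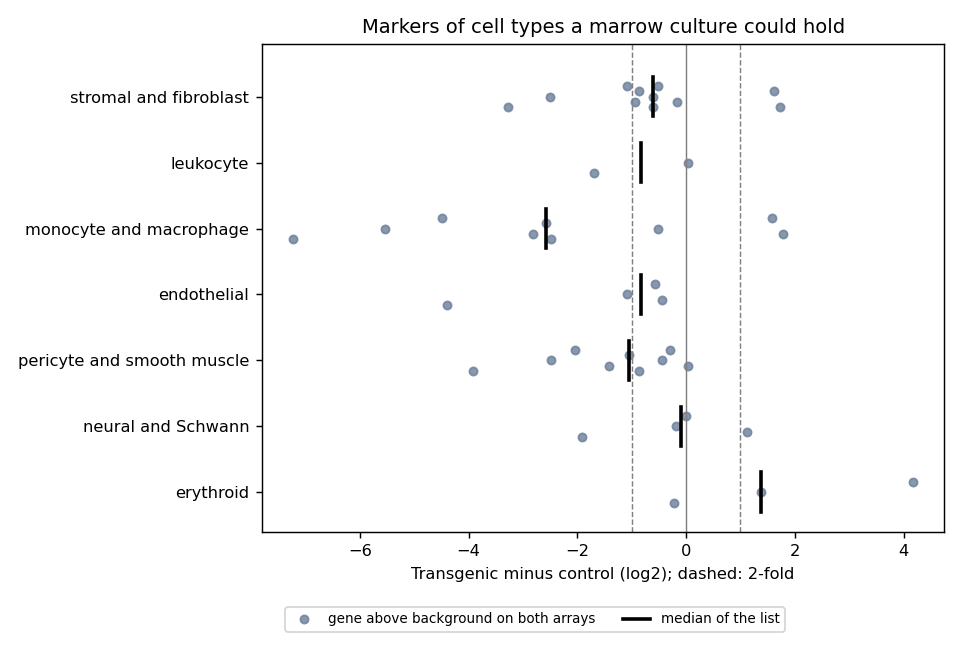
Difference between the arrays (transgenic minus control, log2) of marker genes of stromal and other marrow cell types, with points for genes detected on both arrays and a black bar for the median of each list. The monocyte and macrophage list has the lowest median (-2.57 log2) and the erythroid list the highest (1.38 log2).

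All differences above rest on the 75th percentile of each array. Scaled instead on the 8 detected probes of the E1A spike-ins, RNA added in known amounts, all genes moved up by 1.08 log2. These probes themselves differed between the arrays by -0.138 to -1.003 log2 before scaling, and the shift rests on their median. On that scale 6 of the 10 markers were higher (Eng, Cd9, Alcam, Nt5e, Thy1 and Cd44), Ncam1, Mcam and Nes stayed lower by more than 2-fold with -1.93, -1.74 and -1.49 log2, and Cd81 changed sign to 0.87 log2. Over all 15504 genes, 7822 were then higher and 345 lower, so the rise in higher markers was shared by genes at large. Higher genes then made up 95.8% of all genes past 2-fold, in place of 50.6%. Counts in the lists of related genes moved with it, to 14 higher and 0 lower tetraspanins and partners, 7 and 1 hyaluronan genes, 6 and 2 adenosine genes, 6 and 1 genes of the endoglin complex, 4 and 0 adhesion genes, 2 and 0 filament genes and 13 and 4 niche genes. Of the pericyte and smooth muscle list 1 gene was then higher and 2 were lower (median 0.03 log2). The negative medians of the stromal, leukocyte, endothelial and neural lists turned positive as well (0.47, 0.25, 0.24 and 0.98 log2), and that of the macrophage list stayed negative at -1.5 log2.

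The authors' deposited table gave the same picture for the markers. In it Eng differed by 2.22, Cd9 by 1.81, Alcam by 0.92, Nt5e by 0.76, Thy1 by 0.62, Cd44 by 0.30 on its brightest probe, Cd81 by -0.18, Nes by -2.17 and -1.60 on its 2 probes, Mcam by -2.79 and Ncam1 by -2.80 log2. Each sign matched that of the scanner values for the same probe. Alcam lay below 2-fold there, so Eng and Cd9 alone passed it on the positive side.

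**Figure D5:**
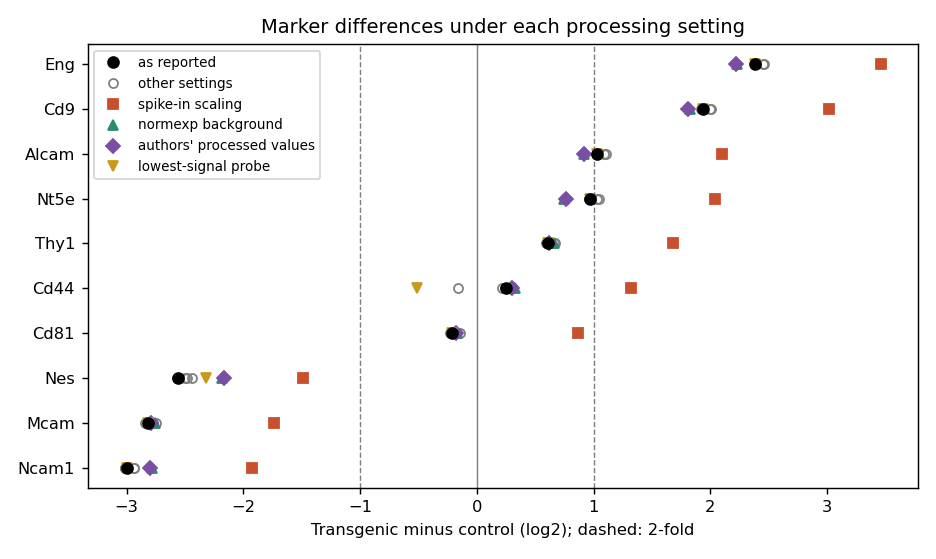
Difference between the arrays (transgenic minus control, log2) for the 10 markers under every processing setting, with black points for the values as reported, orange squares for spike-in scaling, and other symbols for the remaining settings. Mcam, Ncam1 and Nes stay beyond 2-fold on the negative side and Eng and Cd9 on the positive side, whereas Alcam and Nt5e cross the 2-fold line. Thy1 and Cd44 cross it with spike-in scaling only.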

How the data were processed

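The authors deposited, per the file headers, Agilent Feature Extraction 11.0.1.1 files with the intensity of each spot on a linear scale, background-subtracted and detrended but not normalized between arrays, and other per-spot columns (flags of 0 or 1). They also deposited a table on a log2 scale (23153 probes, column medians 7.20 in control and 7.18 in transgenic) whose normalization and centring stay unknown. Across detected probes, which are not replicates, its differences followed the scanner values in the same direction (r = 0.978, slope 0.815). Both arrays were read in 1 scan of 1 slide, per the file headers.

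Outlier spots (446 in control, 505 in transgenic) were left out, which left 1 probe without a value, log2 signals were averaged per probe and each array's 75th percentile was subtracted. A probe was detected if the flag for well above background was set on over 50% of its spots. Accessions were matched without versions to RefSeq genes of GRCr8 (18005 probes with 1 symbol, 12361 with none). A gene is given by its brightest detected probe. Where 1 array alone detected a gene, its fold is a bound, taken against the dim array's own signal or, if higher, its lowest detected signal (15.3 units in control, 15.9 in transgenic). The number of arrays limits the precision.

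Alternatives were median, quantile, loess and spike-in scaling (median of the spike-in probes), normexp background correction (offset 50, limma 3.58.1), the authors' values, other filters, probe rules and size rules, outlier spots kept and, chosen after seeing the data, a percentile over detected probes. Values of some listed genes are not reported here. The calculation was tested on simulated data. Members, lists and motifs were chosen with earlier results of these data known. Named genes were all markers, up to 4 genes of each related list by absolute difference, those with a bound of at least 2-fold, and detected markers of other cells, of which some are printed. Tgfbr1, Acvrl1, Tgfbr2, Itgb1, Cd63, Adk, Rdx, Msn, Vim, Des, Lmna and genes named as not detected were added for their known roles.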

Additional observations from a re-analysis of the deposited data

How the results depend on the processing

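The directions of Eng, Cd9, Alcam, Nt5e, Thy1, Mcam, Ncam1 and Nes were the same under all 12 alternatives that recompute differences. Eng and Cd9 stayed above 2-fold and Mcam, Ncam1 and Nes below it in each, with ranges of 2.22 to 3.46, 1.81 to 3.02, -2.84 to -1.74, -3.01 to -1.93 and -2.57 to -1.49 log2. Alcam passed 2-fold in 10 of 12 (range 0.92 to 2.10), not with normexp or the authors' values, and Nt5e in 3 of 12 (0.75 to 2.04), with median, loess and spike-in scaling. Some of the 12 could not test a marker. All 14 marker probes were detected on both arrays, so the other filters could change no marker. The probe rules could change only Cd44 and Nes, which have several probes. No marker spot was an outlier, so keeping outlier spots acted through the scaling alone. Cd44 was negative with the mean over its probes (-0.16) and with its lowest-signal probe (-0.51), and Cd81 positive with spike-in scaling. The count of higher markers, 3 as reported, was 6 with spike-in scaling, 5 with a 1.5-fold rule, 4 with median and with loess scaling, 2 with normexp and with the authors' values and 1 with a 4-fold rule, while that of lower markers was 3 throughout. The count of higher genes among all 15504 moved too. It was 1628 as reported, 7822 with spike-in, 1787 with median and 1791 with loess scaling, and 1263 with normexp. With the authors' values it was 905 of 11825. Lower genes numbered 1590 as reported and 345 with spike-in scaling. Counts over all genes under the other fold rules are not given here. The median of the markers, 0.43 log2 as reported, was 1.5 with spike-in scaling, 0.22 with the mean over probes and 0.20 with the lowest-signal probe. Median and loess scaling raised the share of higher genes among all genes past 2-fold from 50.6% to 56.2% and 56.3%. No paired analysis was possible because each group has 1 array, and for the same reason no replicate could be left out and slide or scan could not serve as a block. Signal over background limits the 3 dim Cd44 probes most.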

Other observations

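Of the 10 markers, 4 lie on rat chromosome 8 in the assembly GRCr8, and Thy1 and Mcam are close neighbours there with 5 annotated genes between them. This stretch was looked at after the values were seen. Between Thy1 (0.61 log2) and Mcam (-2.82 log2), Usp2, a ubiquitin protease, differed by -0.18 log2 and Rnf26, a ubiquitin ligase, by -0.13 log2. C1qtnf5, a secreted protein of the C1q and TNF-related family, was 3.32-fold lower in transgenic (156420 units in control and 56167 in transgenic, -1.73 ± 0.20 log2). Mfrp, which lies beside it, was not well above background on either array, and LOC120094132 was not matched to a probe. Neighbouring genes thus had unlike differences.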
